A study of Mus musculus with 14 samples.

Results

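Cyclins and other genes of cell proliferation were followed in mouse skeletal muscle, in animals with and without endothelial overexpression of c-Myc. The genes are the D cyclins Ccnd1, Ccnd2 and Ccnd3, the replication genes Mcm2 and Pcna, and the genes of S phase and mitosis Ccna2, Ccnb1, Cdk1, Mki67 and Top2a. They were chosen by name, and each of the 10 names matched 1 entry among the 54532 genes of the count table. On GRCm38 they lie on chromosomes 7 (Ccnd1 and Mki67), 6 (Ccnd2 and Mcm2), 17 (Ccnd3), 2 (Pcna), 3 (Ccna2), 13 (Ccnb1), 10 (Cdk1) and 11 (Top2a). Start and end of each were the same as in GENCODE M21.

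D cyclins are made when a cell leaves rest, and with Cdk4 or Cdk6 they phosphorylate the retinoblastoma protein, which frees E2F factors to switch on genes of DNA synthesis such as Mcm2, a helicase subunit, and Pcna, the sliding clamp of the DNA polymerases. Cyclin A2 then acts in S phase, cyclin B1 with Cdk1 starts mitosis, Mki67 coats the chromosomes of dividing cells and Top2a untangles their DNA. Muscle fibres do not divide, so in adult muscle these late genes are known mainly from satellite cells, the stem cells of muscle, and from the cells of vessels, connective tissue and blood.

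Bulk RNA was sequenced from skeletal muscle of male FVB/N mice, after selection of polyadenylated RNA, in 14 libraries of 4 groups. EC-Myc OE mice (OE) carried a human c-Myc gene behind a Tet-O promoter together with tTA, its activator, under the endothelial Cdh5 promoter. Control littermates (CT) carried the Tet-O transgene without tTA. Doxycycline in the food kept the transgene off, and it was withdrawn at 4 to 6 weeks of age. The labels then give 20 weeks of control diet (CTD) or western, high-fat diet (WD), and no age at harvest, while the study's text on these libraries gives 10 weeks of western diet. There were 3 libraries of CT-CTD, 3 of CT-WD, 4 of OE-CTD and 4 of OE-WD, and a number after a group's name is its replicate. The study used soleus and gastrocnemius, and the labels do not say which muscle gave which library. Group sizes in the study's text differ from those of the labels, which were followed here. The labels do not say that replicates are separate mice, so p-values measure the spread between these samples, taken as independent.

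Sample names in the labels hold a number that OE-CTD 1, OE-CTD 2 and OE-CTD 3 share, and another that all 4 OE-WD libraries share, while OE-CTD 4 and each CT library have one of their own. What the number marks is not given in the sources used here, and its part in a difference between OE and CT cannot be told apart from that of the genotype. Nor can its part in a difference between OE-WD and OE-CTD be told apart from that of the diet. Averages over diets or genotypes and the interaction hold the same limit. If the number marks a shared source, p-values of all comparisons with OE libraries are too small. The estimate of the spread is shared by all groups, so p-values of CT-WD against CT-CTD would be affected as well. Counts of OE-CTD 1 to 3 differed from each other by a chi-square per degree of freedom of 8.02 to 10.97, where counting error alone gives about 1, and from OE-CTD 4 by 39.0 to 45.1. In OE-WD, where the number is the same throughout, the values were 8.78 to 15.8 between OE-WD 1, OE-WD 2 and OE-WD 3 and 40.8 to 44.5 against OE-WD 4. Between CT libraries of 1 group they ran from 17.7 to 53.1.

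Total counts per library ran from 21833839 to 28519159, so a gene without a read could have had up to 3 counts, which corresponded to between 0.099 and 0.153 CPM. CPM is the share of a gene in the TMM-normalized total of its library. This limit covers counting error only. None of 8 defining muscle markers was at 0, and the myosin gene Myh4 alone averaged 48980 CPM. CT-WD 1 stood apart from the other CT libraries in markers of fibroblasts, macrophages and epidermis, given further on, as are values without it. Mouse Myc, which the human transgene does not encode, averaged 5.05 ± 0.921 CPM in CT-CTD (SD, n = 3), 8.99 ± 4.21 in CT-WD (n = 3), 5.60 ± 1.74 in OE-CTD (n = 4) and 6.40 ± 1.76 in OE-WD (n = 4). Its log2 fold change with genotype, averaged over diets, was -0.17 (SE 0.219, edgeR adjusted p = 0.696). Level of the human transgene was not in the tables.

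The 10 genes spanned a wide range of abundance. By FPKM, the authors' unit that corrects for gene length and so allows genes to be compared, Pcna was highest with a mean of 9.57 over 14 libraries, ahead of Ccnd3 at 2.30, Ccnd1 at 1.71, Ccnd2 at 0.939 and Mcm2 at 0.920. The late genes followed at FPKM of 0.121 for Ccna2, 0.0557 for Mki67, 0.0485 for Top2a, 0.0412 for Cdk1 and 0.0227 for Ccnb1. Pcna exceeded Ccnd3 in 14 of 14 libraries, Ccnd1 exceeded Ccnd2 in 14 and Mcm2 exceeded Ccna2 in 14. Ccnd3 exceeded Ccnd1 in 11 of the 14 libraries, all but CT-CTD 2, OE-CTD 2 and OE-WD 2. Other neighbours in this order changed places between libraries, with Ccnd2 above Mcm2 in 8 of 14, Ccna2 above Mki67 in 11, Mki67 above Top2a in 6, Top2a above Cdk1 in 9 and Cdk1 above Ccnb1 in 10. Early genes of the cycle were thus measured with 50 to 659 reads per library, and the late ones with at most 33.

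Ccnd1 encodes cyclin D1, the D cyclin best known as a target of growth factor signals. In CT-CTD its levels were 3.01, 8.28 and 5.64 CPM, and in CT-WD 5.60, 2.42 and 4.27 CPM. In OE-CTD they were 8.47, 9.83, 8.08 and 8.42 CPM, and in OE-WD 8.09, 11.7, 9.95 and 9.40 CPM. On western diet each of the 4 OE libraries was above each of the 3 CT libraries, and on control diet CT-CTD 2 reached into the OE range and above OE-CTD 3. On control diet CT libraries were also the more scattered, with 5.64 ± 2.64 CPM in CT-CTD (SD, n = 3) against 8.70 ± 0.773 in OE-CTD (n = 4). On western diet the values were 4.10 ± 1.60 in CT-WD (n = 3) and 9.79 ± 1.501 in OE-WD (n = 4). OE-CTD 1, OE-CTD 2 and OE-CTD 3 share a sample number, and the 4 OE-WD libraries share another. Its part in the spread cannot be told apart from that of the genotype.

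Ccnd2, for cyclin D2, read 4.90, 7.99 and 5.20 CPM in CT-CTD, and 8.68, 3.77 and 6.45 CPM in CT-WD. In OE-CTD it read 9.97, 8.74, 9.61 and 7.71 CPM, and in OE-WD 8.40, 13.2, 10.3 and 8.36 CPM. Its groups overlapped on both diets, with CT-CTD 2 above OE-CTD 4 and CT-WD 1 above OE-WD 1 and OE-WD 4. Group means were 6.03 ± 1.70 CPM in CT-CTD, 6.30 ± 2.46 in CT-WD (SD, n = 3), 9.01 ± 1.01 in OE-CTD and 10.1 ± 2.25 in OE-WD (n = 4). In the lowest CT libraries, CT-CTD 1 and CT-WD 2, both Ccnd1 and Ccnd2 were low, and in OE-WD 2 both were at their highest.

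Ccnd3, for cyclin D3, was the most even of the D cyclins. It measured 15.3, 15.4 and 16.1 CPM in CT-CTD, and 15.0, 16.1 and 18.1 CPM in CT-WD. In OE-CTD the levels were 21.2, 17.7, 20.3 and 20.5 CPM, and in OE-WD 17.9, 21.7, 21.2 and 22.1 CPM. On control diet the genotypes did not overlap, and on western diet only OE-WD 1 fell under a CT library, CT-WD 3. The means were 15.6 ± 0.448 CPM in CT-CTD, 16.4 ± 1.56 in CT-WD (SD, n = 3), 19.9 ± 1.54 in OE-CTD and 20.7 ± 1.93 in OE-WD (n = 4).

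**Figure D1:**
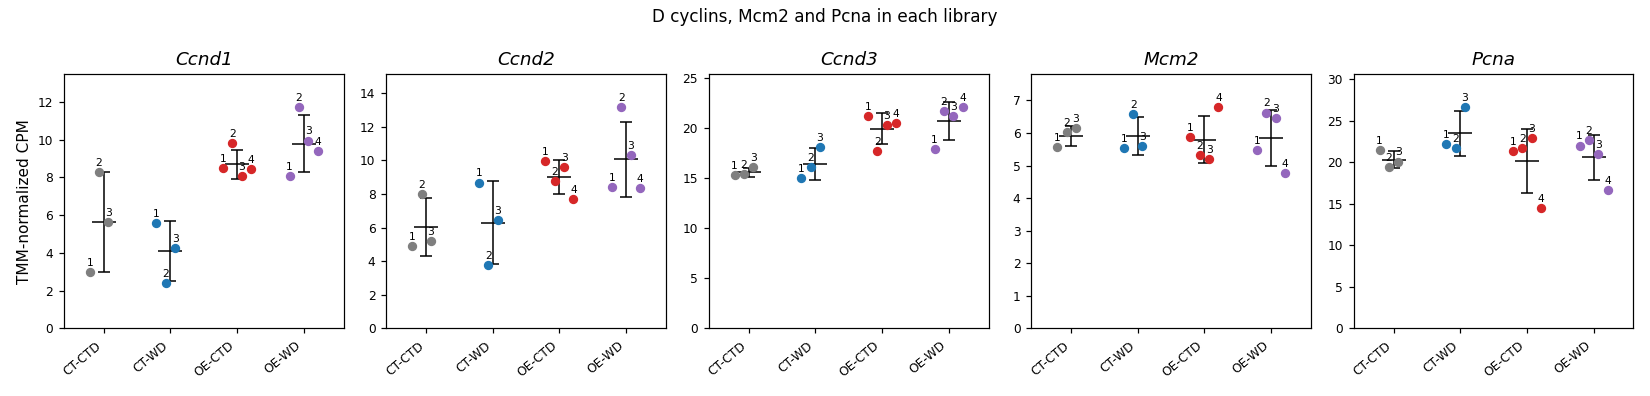
Level of the D cyclins, Mcm2 and Pcna in each library, in TMM-normalized CPM on the vertical axis, by group on the horizontal axis. Each point is a library with its replicate number, and bars are the group mean and SD (n = 3 for CT groups, n = 4 for OE groups). Ccnd1 in OE-WD lies between 8.09 and 11.7 CPM, above every CT-WD library.

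Averaged over both diets, 2 of the 8 genes that could be tested were called higher in OE, Ccnd1 and Ccnd2, where called means an edgeR adjusted p under 0.05 together with a fold change over 1.5. Ccnb1 and Cdk1 were removed by the filter on low counts and so 8 of 10 were tested. Among all 15458 genes tested, 562 (3.64%) were called in this comparison, with 1111 without CT-WD 1, 335 without CT-WD 2, 350 without CT-CTD 3 and 368 without OE-WD 2. The log2 fold change of Ccnd1 was 0.94 (SE 0.201, a fold of 1.91, adjusted p = 0.0109), with 6 of 8 OE libraries above every CT library. For Ccnd2 it was 0.62 (SE 0.175, a fold of 1.54, adjusted p = 0.0385), with 5 of 8 OE libraries above every CT library. Ccnd3 passed on p but not on size, at 0.34 (SE 0.0721, a fold of 1.27, adjusted p = 0.00972), with 6 of 8 OE libraries above every CT library. In bulk RNA, more cells of a type and more RNA per cell cannot be told apart, nor can fewer cells and less RNA.

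At an unadjusted p under 0.05, 3 of the 8 tested genes were higher in OE over both diets, all of them D cyclins. That share is to be read against 23.9% of all genes that passed this limit in either direction and 13.1% that passed it upward. On western diet the D cyclins were again the 3 genes past this limit, where 16.9% of all genes passed and 8.44% upward, and on control diet they were so again, where 15.9% passed and 9.22% upward. Both of these comparisons enter the average over diets. Without CT-WD 1 the number past this limit was 5 over both diets and 5 on western diet, as Mki67 and Top2a joined the D cyclins. Over all genes the number called also rose without CT-WD 1, from 562 to 1111 over both diets and from 87 to 905 on western diet. No share of all genes at the unadjusted limit was taken in fits without a library. Counts from such fits, here and further on, therefore describe the listed genes only. On western diet Ccnd2 missed the unadjusted limit without CT-WD 2 or OE-WD 2, which left 2 genes. On control diet Ccnd3 alone passed without CT-CTD 1, CT-CTD 3 or OE-CTD 1 and with the block, while 2 genes passed without OE-CTD 2, OE-CTD 3 or OE-CTD 4.

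Within a diet, no gene of the 8 was called by edgeR between genotypes. OE-WD against CT-WD compares the genotypes on western diet. The log2 fold changes were 1.24 for Ccnd1 (SE 0.289, adjusted p = 0.0604), 0.67 for Ccnd2 (adjusted p = 0.192) and 0.34 for Ccnd3 (adjusted p = 0.122). Of all genes tested, 87 (0.563%) were called here, with 905 without CT-WD 1, 57, 53 and 43 without OE-CTD 3, OE-CTD 1 and OE-CTD 2, 13 without CT-WD 2 or OE-WD 4, 7 without CT-WD 3, 6 without OE-WD 3 and 4 without OE-WD 2. DESeq2 called 1 of the 8 genes, Ccnd1 (adjusted p = 0.0017), and 308 of all genes, and limma on log2 FPKM called 0 and 30. With no filter on low counts edgeR also called Ccnd1 (adjusted p = 0.000689), and 401 of all genes. Ccnd1 was called in edgeR without CT-CTD 1 (adjusted p = 0.0277), without CT-CTD 2 (0.0429) and without CT-WD 1 (log2 fold change 1.54, adjusted p = 0.0101). Over all alternatives but the exchange of names its adjusted p ran from 0.000689 to 0.272. Leaving out CT-WD 1 raised the number called to 3, with Ccnd2 at 0.97 (adjusted p = 0.0301) and Mki67 at 3.15 (adjusted p = 0.0386), while Ccnd2 was 0.41 without CT-WD 2 (adjusted p = 0.527) and 0.51 without OE-WD 2 (adjusted p = 0.432). CT-WD 1 had the highest Ccnd1, Ccnd2, Mki67 and Top2a of its group.

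OE-CTD against CT-CTD compares the genotypes on control diet. The log2 fold changes were 0.63 for Ccnd1 (SE 0.281, adjusted p = 0.283), 0.58 for Ccnd2 (adjusted p = 0.257) and 0.35 for Ccnd3 (adjusted p = 0.084). edgeR, DESeq2 and limma each called 0 of the 8 genes, and edgeR called 295 of all genes (1.91%), with 170, 102 and 102 without OE-CTD 1, OE-CTD 2 and OE-CTD 3, 99 without CT-CTD 2 and 64 without CT-CTD 3. Over all genes DESeq2 called 504, limma 117 on log2(FPKM + 1) and 196 on log2(FPKM + 0.1), and edgeR with the replicate block 14. Without CT-CTD 2, the CT-CTD library with the highest Ccnd1 and Ccnd2, the values were 1.01 for Ccnd1 and 0.84 for Ccnd2, and without CT-CTD 1 they were 0.32 and 0.45, and neither gene was called. Whether the difference between genotypes itself differed between diets was tested as an interaction. It was 0.62 for Ccnd1 (SE 0.397, adjusted p = 0.882), 0.08 for Ccnd2 (adjusted p = 0.983) and -0.02 for Ccnd3 (adjusted p = 0.993).

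The call of Ccnd1 over both diets was made whichever library was left out, with an adjusted p from 0.00288 to 0.0316 and a log2 fold change from 0.78 to 1.13. Ccnd2 lost its call without CT-CTD 1 (log2 fold change 0.55, adjusted p = 0.0771), CT-CTD 3 (0.58, adjusted p = 0.102), CT-WD 2 (0.49, adjusted p = 0.0826) or CT-WD 3 (0.63, adjusted p = 0.0721). It also lost the call without OE-CTD 1 (0.60, adjusted p = 0.0693), OE-CTD 2 (0.63, adjusted p = 0.0668), OE-CTD 3 (0.61, adjusted p = 0.0709), OE-WD 2 (0.54, adjusted p = 0.0839) or OE-WD 3 (0.62, adjusted p = 0.0668). With replicate numbers as a block of diet and number, none of the D cyclins was called, with log2 fold changes of 1.02 for Ccnd1 (adjusted p = 0.0594), 0.73 for Ccnd2 (adjusted p = 0.109) and 0.32 for Ccnd3 (adjusted p = 0.0552). The number called over all genes was then 202 in place of 562. With the names of CT-WD and OE-CTD exchanged, the alternative that the mismatch of group sizes calls for, the genotype value of Ccnd1 was -0.14 and its diet value 0.94. At its own limits, the study gives more genes altered by western diet in CT than in OE, and fewer between OE-WD and CT-WD. In edgeR these 3 comparisons had 0, 1 and 87 of all genes called with the names kept, and 295, 87 and 1 with them exchanged. Which names hold was not tested.

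**Figure D2:**
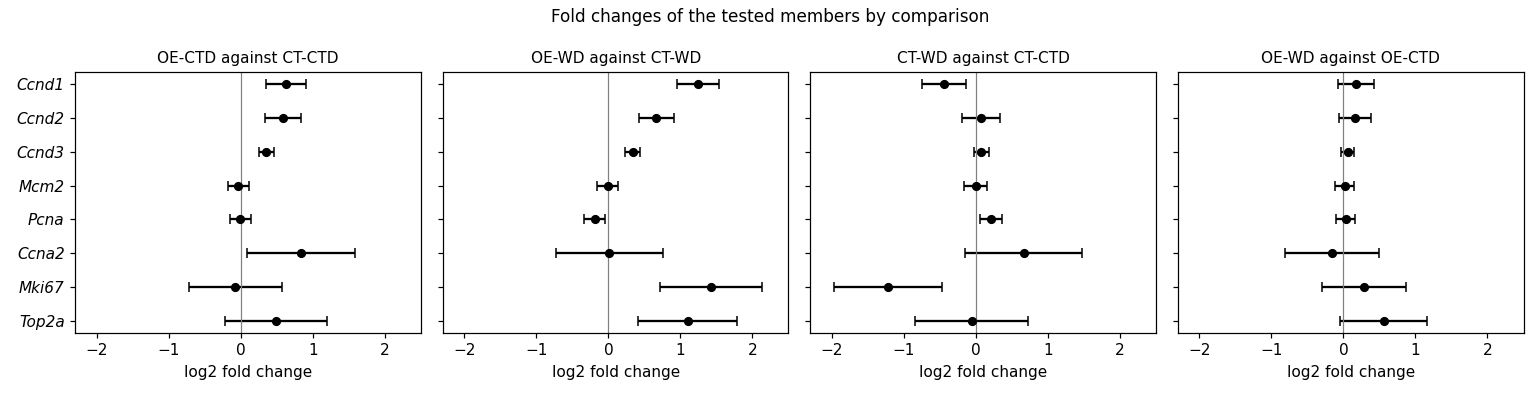
Log2 fold change on the horizontal axis, with its standard error as a bar, for each of the 8 tested genes on the vertical axis, in the 4 comparisons of 2 groups (n = 3 for CT groups, n = 4 for OE groups). The D cyclins lie to the right of 0 in both comparisons of genotype, at 0.63, 0.58 and 0.35 on control diet and 1.24, 0.67 and 0.34 on western diet.

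Markers of several cell types also differed between genotypes. Summed over a list of 6 fibroblast genes, levels were 435, 409 and 319 CPM in CT-CTD, 981, 356 and 354 in CT-WD, 924, 1083, 1028 and 635 in OE-CTD, then 704, 1567, 896 and 745 in OE-WD. CT-WD 1, the CT-WD library with the highest Ccnd2, stood far above the other CT libraries, and OE-WD 2, the library with most Ccnd1 and Ccnd2, was highest of the 14. Over both diets 6 of these 6 genes were higher at an unadjusted p under 0.05, against 13.1% of all genes with all libraries kept. The number was also 6 whichever library was left out. At the stricter call the number was 5 of 6, against 3.64% of all genes. Without single libraries it ranged from 0 (CT-CTD 3, CT-WD 2 or OE-WD 2) to 6 (CT-WD 1). It was 2 without CT-CTD 1, CT-CTD 2, OE-CTD 1 or OE-WD 3 and 1 without CT-WD 3, OE-CTD 2 or OE-CTD 3. With the replicate block it was 0. By diet, 6 of 6 passed the unadjusted limit on control diet, against 9.22% of all genes upward, and 2 of 6 on western diet, against 8.44%. On western diet the number was 6 without CT-WD 1, 4 without OE-WD 4, 1 without OE-CTD 1, OE-CTD 2 or OE-WD 3 and 0 without CT-WD 2, CT-WD 3 or OE-WD 2. Dcn was the most abundant at a mean of 264 CPM, and none of the 6 was at 0.

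Endothelial genes, 12 in the list, summed to 467, 476 and 491 CPM in CT-CTD, 559, 522 and 585 in CT-WD, 595, 606, 582 and 521 in OE-CTD, then 619, 627, 644 and 618 in OE-WD. Each CT-CTD library was below every library of the other groups, and each OE-WD library was above every CT library. Over both diets 8 of 12 were higher at an unadjusted p under 0.05, against 13.1% of all genes, and 0 were called by edgeR, DESeq2 or limma. Of these, 6 had an adjusted p under 0.05 and missed the fold limit only, Cdh5, Emcn, Erg, Kdr, Tek and Tie1, with log2 fold changes from 0.35 to 0.45 and adjusted p from 0.00333 to 0.0318. That number was 4 to 7 when a library was left out, and 4 with the block. No share of all genes was taken at this limit, so the number describes the listed genes only. The rest of the list had log2 fold changes of 0.22 for Pecam1, 0.19 for Robo4, 0.11 for Egfl7, 0.04 for Eng, 0.00 for Cldn5 and -0.05 for Esam. Their adjusted p was at least 0.0643. Between diets, averaged over genotypes, 6 of 12 were higher and 1 lower at the unadjusted limit, against 5.96% of all genes in either direction. These numbers were 4 and 1 for CT-WD against CT-CTD, against 7.28%, and 2 and 0 for OE-WD against OE-CTD, against 4.2%. Eng was the most abundant of the list at a mean of 94.6 CPM, and none was at 0. Macrophage genes, 8 in the list with Lyz2 the most abundant at 28.1 CPM and none at 0, summed to 78.5, 47.1 and 41.7 CPM in CT-CTD, 126, 62.3 and 52.9 in CT-WD, 81.1, 98.4, 127 and 80.5 in OE-CTD, then 75.3, 125, 76.0 and 81.8 in OE-WD. CT-WD 1 was again highest of the CT libraries. Over both diets 5 of the 8 were higher at an unadjusted p under 0.05, against the same 13.1%, and 0 were called by edgeR, 1 by DESeq2 and 0 by limma, and without CT-WD 1 edgeR called 5, without CT-CTD 1 it called 2. By diet, 7 of 8 passed the unadjusted limit on control diet, against 9.22% of all genes upward, but 4 without OE-CTD 2, 3 without CT-CTD 3 or OE-CTD 3 and 2 without CT-CTD 2. On western diet 0 of 8 passed it, but 5 without CT-WD 1. The part of these cell types in the D cyclin result was not tested.

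Epidermal genes, 7 in the list with Trp63 the most abundant at a mean of 12.2 CPM and none at 0, summed to 48.2, 18.4 and 23.8 CPM in CT-CTD, 98.5, 21.1 and 34.8 in CT-WD, 30.0, 44.0, 45.0 and 15.2 in OE-CTD, then 24.4, 93.7, 134 and 48.8 in OE-WD. CT-WD 1, which had the highest Ccnd2 and Mki67 of its group, stood far above the other CT libraries here too, and OE-WD 2, with the most Ccnd1, Ccnd2 and Mki67 of the OE-WD libraries, was high with OE-WD 3. Over both diets 1 of the 6 tested was higher at an unadjusted p under 0.05, Lor, which is near the 13.1% of all genes, and 0 were called. Without CT-WD 1 these numbers were 3 and 2, and 1 was lower. The number higher was 2 without OE-CTD 4, OE-WD 1 or OE-WD 4. The part of such tissue in the levels of Ccnd1, Ccnd2 and Mki67 was not tested.

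The sum over 7 satellite cell genes, of which Myod1 was the most abundant at a mean of 28.5 CPM and none was at 0, was 40.9, 58.1 and 53.9 CPM in CT-CTD, 53.0, 64.9 and 126 in CT-WD, 44.1, 42.6, 47.9 and 40.7 in OE-CTD, then 51.0, 41.5, 51.5 and 45.2 in OE-WD. CT-WD 3 was highest, and it was also the highest library for Pcna. At an unadjusted p under 0.05, 2 were higher over both diets, Chodl and Pax7, and 2 were lower, Myod1 and Myog, against 23.9% of all genes in either direction. Called, against 3.64% of all genes, were Chodl, higher by a log2 fold change of 0.67 (SE 0.190, adjusted p = 0.0409), and Myod1, lower by -0.62 (SE 0.113, adjusted p = 0.00454). The number called higher was 0 without CT-CTD 2, CT-CTD 3, CT-WD 2, CT-WD 3, OE-CTD 1, OE-CTD 2, OE-CTD 3, OE-WD 1, OE-WD 2 or OE-WD 3, and the number called lower was 0 without CT-CTD 2, CT-WD 3 or OE-WD 2. Both were 0 with the replicate block or limma on log2(FPKM + 1), and 2 without CT-WD 1. At the unadjusted limit the number higher was 1 without CT-CTD 1, CT-CTD 2, CT-WD 2, CT-WD 3, OE-CTD 1, OE-CTD 2, OE-CTD 4, OE-WD 2 or OE-WD 3, and the number lower was 1 without CT-CTD 3 or CT-WD 3. Their part in the levels of the cell cycle genes was not tested.

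Mcm2 and Pcna, which E2F factors are known to switch on after the D cyclins have acted, passed no limit in any of the 7 comparisons. Mcm2 measured 5.58, 6.02 and 6.15 CPM in CT-CTD, 5.53, 6.57 and 5.60 in CT-WD, 5.87, 5.31, 5.19 and 6.79 in OE-CTD, then 5.49, 6.63, 6.47 and 4.78 in OE-WD. All 4 groups overlapped, with means from 5.79 ± 0.727 CPM in OE-CTD (SD, n = 4) to 5.92 ± 0.304 in CT-CTD (n = 3). Its log2 fold change with genotype over both diets was -0.02 (SE 0.105, adjusted p = 0.921), and its sign changed when OE-WD 4 or CT-WD 2 was left out (0.02 in each case).

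Pcna measured 21.4, 19.4 and 20.1 CPM in CT-CTD, 22.2, 21.7 and 26.6 in CT-WD, 21.4, 21.7, 23.0 and 14.5 in OE-CTD, then 22.02, 22.7, 21.01 and 16.7 in OE-WD. The lowest libraries were OE-CTD 4 and OE-WD 4, and the 3 CT-WD libraries were each above the 3 CT-CTD libraries. The genotype value was -0.10 (SE 0.102, adjusted p = 0.596), -0.04 without OE-CTD 4, -0.06 without OE-WD 4, -0.05 without CT-WD 3 and 0.01 with the block, and the value for CT-WD against CT-CTD 0.21 (SE 0.155, adjusted p = 0.86), or 0.11 without CT-WD 3. OE-CTD 4 and OE-WD 4 also had the smallest TMM factors, 0.888 and 0.899, and the highest sums of the 8 muscle markers, 167597 and 172510 CPM against 119730 to 159546 in the other libraries. The part of these library features in the Pcna level was not tested.

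Genes of S phase and mitosis were near the limit of detection, so they are given as reads counted. Ccna2 had 10, 11 and 1 reads in CT-CTD, 24, 8 and 3 in CT-WD, 15, 20, 16 and 4 in OE-CTD, then 3, 8, 19 and 18 in OE-WD. Mki67 had 13, 22 and 7 in CT-CTD, 15, 2 and 1 in CT-WD, 10, 19, 13 and 12 in OE-CTD, then 7, 33, 7 and 22 in OE-WD. Top2a had 11, 8 and 2 in CT-CTD, 14, 3 and 3 in CT-WD, 12, 4, 16 and 7 in OE-CTD, then 7, 22, 7 and 25 in OE-WD. The groups compared overlapped for each of them, and CT-WD 1 held most of the reads of its group for each of the 3 genes.

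Cdk1 and Ccnb1, the kinase and cyclin that start mitosis, were lower still. Cdk1 had 3, 2 and 6 reads in CT-CTD, 3, 4 and 0 in CT-WD, 6, 8, 9 and 0 in OE-CTD, then 3, 4, 7 and 11 in OE-WD. Ccnb1 had 4, 1 and 0 in CT-CTD, 3, 3 and 0 in CT-WD, 4, 0, 2 and 1 in OE-CTD, then 0, 2, 5 and 5 in OE-WD. Ccnb1 was at or under 3 counts in 10 of 14 libraries and Cdk1 in 6, against 3 for Ccna2, 3 for Top2a and 2 for Mki67. Over all 14 libraries the sums were 30 reads for Ccnb1, 66 for Cdk1, 141 for Top2a, 160 for Ccna2 and 183 for Mki67.

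**Figure D3:**
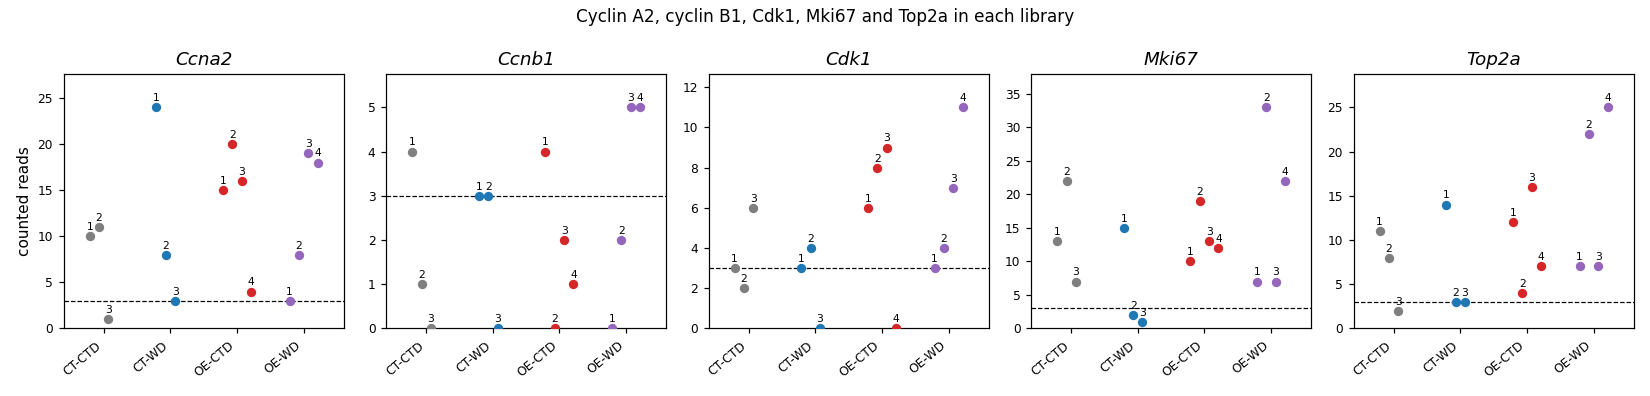
Reads counted for Ccna2, Ccnb1, Cdk1, Mki67 and Top2a on the vertical axis in each of the 14 libraries, by group on the horizontal axis. Each point is a library with its replicate number, and the dashed line marks 3 counts. Ccnb1 is at or under the line in 10 libraries, and the highest value is 33 reads, for Mki67 in OE-WD 2.

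With so few reads the genotype values were imprecise. Over both diets the log2 fold change was 0.42 for Ccna2 (SE 0.522, adjusted p = 0.674), 0.67 for Mki67 (SE 0.478, adjusted p = 0.418) and 0.79 for Top2a (SE 0.4926, adjusted p = 0.35). With no filter on low counts, Cdk1 stood at 0.92 (SE 0.652, adjusted p = 0.556) and Ccnb1 at 0.28 (SE 0.903, adjusted p = 0.9998). Without CT-WD 1 the values were 0.86 for Ccna2, 1.54 for Mki67 (adjusted p = 0.062) and 1.26 for Top2a. Ccna2 had its lowest, 0.16, without CT-CTD 3, and moved over 1.5 times also without CT-CTD 2 (0.64), CT-WD 3 (0.21) or OE-WD 3 (0.24). Mki67 was lowest without CT-WD 3 (0.44), followed by 0.46 without OE-WD 2, and Top2a without CT-CTD 3 (0.57). Ccna2, Mki67 and Top2a were not called in the main test, which did not hold Cdk1 and Ccnb1. On western diet Mki67 had a log2 fold change of 1.43 (SE 0.705, adjusted p = 0.322), which was 3.15 (adjusted p = 0.0386) without CT-WD 1, when CT-WD 2 and CT-WD 3, with 2 reads and 1 read, were all that remained of the group. On this diet its lowest value without a library was 0.97, without CT-WD 3.

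Genes of the hair follicle, 10 in the list with Tchh the most abundant at a mean of 1.30 CPM and none at 0 in all libraries, summed to 0.435, 0.460 and 0.675 CPM in CT-CTD, 0.325, 0.338 and 0.0889 in CT-WD, 0.422, 0.330, 3.96 and 0.459 in OE-CTD, then 0.311, 0.316, 12.8 and 47.7 in OE-WD. The 3 high libraries were all OE, and OE-WD 4, the highest, also had the most reads of Top2a and Cdk1 and 22 reads of Mki67. None of the list was tested without OE-CTD 3, OE-WD 3 or OE-WD 4. The 3 genes tested thus passed the filter through these libraries, which fixed their direction. Their counts are therefore not compared with the share of all genes. At an unadjusted p under 0.05, 2 were higher in OE over both diets, Krt25 and Tchh, and 3 on western diet, with Krt71. Limma on log2(FPKM + 1) or log2(FPKM + 0.1) gave 0 in both. The median log2 fold changes were 4.60 and 6.49, 0 were called by edgeR in either, and DESeq2 called 1 in each. With no filter on low counts edgeR called 6 of 10 in each. OE-WD against OE-CTD also had 3 higher, with a median of 3.82. Between genotypes over both diets 1 was called without OE-WD 1 or OE-WD 2. With 1 CT library left out, whichever it was, 7 were tested. The list summed to at most 0.675 CPM in CT libraries, so the same limit holds. Of the 7, 4 to 5 passed the unadjusted limit over both diets and 6 to 7 on western diet. Without OE-WD 4 the genotype values over both diets were 0.61 for Top2a, 0.59 for Mki67 and 0.29 for Ccna2. The part of such tissue in the late genes was not tested.

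No difference with diet was called in these genes. For CT-WD against CT-CTD, the comparison of diets in CT, edgeR, DESeq2 and limma called 0 of the 8 tested genes. In edgeR 0 passed an unadjusted p under 0.05, against 7.28% of all genes. Of all 15458 genes edgeR called 0 (0%), but 41 without CT-WD 1, 3 without OE-WD 1 and 1 without CT-WD 2. DESeq2 called 31, limma 0 and edgeR with no filter on low counts 88. With replicate numbers as a block, edgeR called 10. The log2 fold changes were -0.45 for Ccnd1 (SE 0.308, adjusted p = 0.85), 0.07 for Ccnd2 (adjusted p = 0.98) and 0.08 for Ccnd3 (adjusted p = 0.945). With that block they were -0.45, 0.02 and 0.05, and the sign of Ccnd2 changed without CT-WD 1 (-0.23). Ccnd1 passed the unadjusted limit without CT-CTD 1 (-0.76, adjusted p = 0.438) and without CT-WD 1 (-0.75, adjusted p = 0.39), while its value was -0.06 without CT-CTD 2. The limit was also passed by Mki67 without CT-WD 1, at -2.94 (adjusted p = 0.21) in place of -1.22.

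For OE-WD against OE-CTD, the comparison of diets in OE, 0 of the 8 genes were called by edgeR, DESeq2 or limma. An unadjusted p under 0.05 was reached by 0. Over all genes 1 was called (0.00647%) and 4.2% passed the unadjusted limit. Values were 0.17 for Ccnd1 (SE 0.252), 0.16 for Ccnd2 (SE 0.222) and 0.06 for Ccnd3 (SE 0.0932), each with an adjusted p of 0.9999. Averaged over genotypes, diet again gave 0 of 8 by each tool and 0 at the unadjusted limit, against 0.00647% and 5.96% of all genes, and the smallest adjusted p was 0.981. The interaction of diet and genotype likewise gave 0 of 8 by each tool and 0 at the unadjusted limit, against 0% and 5.92% of all genes, with a smallest adjusted p of 0.878. Without CT-WD 1, Mki67 passed the unadjusted limit for diet over genotypes (-1.33, adjusted p = 0.467) and for the interaction (3.23, adjusted p = 0.317), and Ccnd1 did so for the interaction (0.91, adjusted p = 0.44). Ccnd1 also did so for the interaction without CT-CTD 1 (0.92, adjusted p = 0.664), and its interaction was 0.23 without CT-CTD 2. The number called over all genes was 0 without OE-CTD 1, 2 without OE-WD 1 and 5 with no filter for OE-WD against OE-CTD. For diet over genotypes it was 23 without CT-WD 1, 4 without OE-WD 1, 2 without CT-CTD 1, 10 with DESeq2 and 47 with no filter. For the interaction it was 1 without CT-WD 1 or CT-WD 2 or with the block, 9 with DESeq2 and 29 with no filter.

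Partners of these genes in the cycle were read from 5 lists, whose counts over both diets stand against 23.9% of all genes past the unadjusted limit and 3.64% called. Of 9 G1/S cyclins and kinases, 9 were tested and 0 passed even the unadjusted limit over both diets, with a median log2 fold change of 0.05 against 0.00 for all genes tested, and edgeR called 0. Cdk4, which D cyclins bind, had a mean FPKM of 7.20 and a value of -0.01 (SE 0.0667, adjusted p = 0.928), while Ccnh, Ccne2 and Mnat1, the next most abundant, had -0.09, -0.15 and 0.11. Among pocket proteins and E2F factors, 13 of 13 tested, 1 was higher and 1 lower at the unadjusted limit and 0 were called, with E2f6, E2f4, Tfdp1 and Rbl2 at -0.02, -0.11, -0.11 and 0.09.

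CDK inhibitors, which hold the cycle back, had 6 of 7 genes tested, 0 called, and 2 lower and 0 higher at the unadjusted limit over both diets. Cdkn1c fell by 0.48 on the log2 scale (SE 0.139, adjusted p = 0.0438), under the fold limit, and Cdkn1a stood at -0.77 (SE 0.274, adjusted p = 0.0952). Cdkn1b and Cdkn2d, the other abundant ones, had 0.00 and -0.20. Their median was -0.19, against 0.00 for all genes.

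Beside Mcm2 and Pcna, 33 of 36 other genes of DNA replication were tested, with a median of -0.03, 4 higher and 3 lower at the unadjusted limit and 1 called over both diets, Rrm2, a subunit of ribonucleotide reductase. These 7 and 1 of 33 are near the 23.9% and 3.64% of all genes. Rrm2 was lower in OE, with a log2 fold change of -0.90 (SE 0.227, adjusted p = 0.0239), not called without CT-CTD 3 (-0.77, adjusted p = 0.0777) or CT-WD 3 (-0.80, adjusted p = 0.0684) or with the block (-0.99, adjusted p = 0.0878), nor with limma on log2(FPKM + 1), where it missed the fold limit (-0.29, adjusted p = 0.027). On control diet it was -1.48 (SE 0.323, adjusted p = 0.0268), not called without CT-CTD 2 (0.0778), CT-CTD 3 (0.155), OE-CTD 1 (0.0726), OE-CTD 2 (0.0695) or OE-CTD 3 (0.0795) or with the block (0.127), with log2 fold changes from -1.22 to -1.57 in these fits, nor with that limma fit (-0.48, adjusted p = 0.0323). On western diet it was -0.32 (SE 0.321, adjusted p = 0.654). Gins4, Rfc1, Rfc4 and Dut, the most abundant of the list, had -0.06, -0.06, -0.07 and 0.12 over both diets.

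Of 50 mitosis genes other than those named above, 29 were tested, with a median of 0.00, 2 higher and 1 lower at the unadjusted limit and 1 called over both diets, Ube2c, which marks mitotic cyclins for breakdown. The share called, 1 of 29, is near the 3.64% of all genes, and the 3 of 29 at the unadjusted limit lie under its 23.9%. Ube2c was lower in OE, by a log2 fold change of -1.02 (SE 0.167, adjusted p = 0.00269), and was called whichever library was left out, but not with limma on log2(FPKM + 1), where it missed the fold limit (-0.55, adjusted p = 0.00501). On control diet it was -1.33 (SE 0.234, adjusted p = 0.00973), not called without CT-CTD 2 (-1.16, adjusted p = 0.0577) or with the block (-1.21, adjusted p = 0.0851). On western diet it was -0.70 (SE 0.237, adjusted p = 0.158). The abundant Bub3, Aurka, Ncapd2 and Tpx2 had -0.02, -0.29, 0.10 and 0.35.

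Whether the D cyclins vary together was looked at within each genotype, in 6 relations with p-values from exact permutation tests (two-sided). Ccnd1 and Ccnd2 had r = 0.824 over the 6 CT libraries (exact permutation p = 0.0486, adjusted over the 6 relations 0.158, rho = 0.714, p = 0.136), and r = 0.550 without CT-WD 2 and CT-CTD 2. Over the 8 OE libraries r was 0.694 (exact permutation p = 0.0526, adjusted 0.158, rho = 0.548, p = 0.171), and -0.18 without OE-WD 2 and OE-WD 3. The libraries left out were the 2 farthest from the median of Ccnd1 in their genotype. Leaving them out narrows its range, which by itself tends to lower r. The permutations take libraries as exchangeable, although most OE libraries share a sample number with others. The 4 relations with Ccnd3 ran from r = -0.21 to 0.418, with exact permutation p-values of at least 0.30. None passed after adjustment.

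Genes whose levels followed each member most closely over all 14 libraries, by Pearson correlation of log2 CPM among about 12745 other tested genes, are given as a description. They were Fam198b (r = 0.961), Flrt2 (0.919) and Steap3 (0.917) for Ccnd1, Mrc2 (0.927), D430040D24Rik (0.926) and Csf1 (0.923) for Ccnd2, and Bcam (0.918), Phldb1 (0.893) and Camk2b (0.887) for Ccnd3. For Pcna they were Ppig (0.919), Esam (0.912) and Rsrc2 (0.910), and for Mcm2, with lower values, Ttc41 (0.753), 4930577N17Rik (0.752) and Gm973 (0.740). No gene appeared under more than 1 of these 5 members. With few counts of the late genes, they were Rhoq (0.936), Zbtb7b (0.916) and Asb18 (0.892) for Mki67, Spi1 (0.881), Aldh7a1 (0.872) and Gm26813 (0.871) for Top2a, and Renbp (0.821), Fjx1 (0.810) and Myd88 (0.810) for Ccna2. The libraries share their groups, so these correlations hold differences between groups as well.

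Some neighbours lie on the opposite strand of these genes with exons that overlap, and the strand setting of the counting was not given in the sources used here. Oraov1 overlaps Ccnd1, averaged 12.6 CPM and had a genotype value of -0.18 (adjusted p = 0.366). Bysl overlaps Ccnd3, averaged 28.3 CPM and had -0.01 (adjusted p = 0.953), and Exosc9 overlaps Ccna2, averaged 11.9 CPM and had -0.04 (adjusted p = 0.843). Overlapping genes of Ccnd2 reached at most 0.0666 CPM. Processed copies were barely counted, with 54 reads over all libraries for Pcna-ps2, 6 for Ccnd3-ps, 2 for Ccnb1-ps and 0 for Pcna-ps1.

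Promoter sequences from RefSeq (GRCm38.p6) were on hand for 7 of the 10 genes in 8 entries, and there was none for Ccnd1, Ccnd2 or Ccna2. The 250 bases before the start of 4 of them, which hold no GENCODE exon, are shown 5′ to 3′ because they set a D cyclin beside genes of replication and mitosis. They are Ccnd3 (chr17:47504801-47505050, plus strand), Mcm2 (chr6:88898781-88899030, minus strand), Mki67 (chr7:135716380-135716629, minus strand) and Top2a (chr11:99024190-99024439, minus strand). Capitals mark matches, on either strand, to the CCAAT box (CCAAT) and the CHR element of cell cycle promoters (TTTGAA or TTCGAA). An E-box that Myc can bind (CACGTG) and E2F motifs (TTTGGCGC or TTTCGCGC) were also searched, and these 4 motifs do not overlap in the windows shown.
Ccnd3: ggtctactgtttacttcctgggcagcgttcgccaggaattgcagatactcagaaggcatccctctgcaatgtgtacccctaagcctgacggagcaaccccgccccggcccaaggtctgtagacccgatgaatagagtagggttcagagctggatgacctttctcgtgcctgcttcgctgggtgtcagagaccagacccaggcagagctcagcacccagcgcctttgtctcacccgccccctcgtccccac
Mcm2: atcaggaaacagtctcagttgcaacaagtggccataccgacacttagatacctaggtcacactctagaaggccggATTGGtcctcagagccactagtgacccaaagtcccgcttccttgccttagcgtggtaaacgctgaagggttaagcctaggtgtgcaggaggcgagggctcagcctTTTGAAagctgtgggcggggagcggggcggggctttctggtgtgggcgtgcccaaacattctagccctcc
Mki67: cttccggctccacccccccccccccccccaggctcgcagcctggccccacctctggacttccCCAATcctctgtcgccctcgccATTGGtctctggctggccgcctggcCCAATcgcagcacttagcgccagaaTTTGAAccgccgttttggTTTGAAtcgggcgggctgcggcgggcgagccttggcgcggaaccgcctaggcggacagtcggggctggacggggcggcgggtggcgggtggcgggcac
Top2a: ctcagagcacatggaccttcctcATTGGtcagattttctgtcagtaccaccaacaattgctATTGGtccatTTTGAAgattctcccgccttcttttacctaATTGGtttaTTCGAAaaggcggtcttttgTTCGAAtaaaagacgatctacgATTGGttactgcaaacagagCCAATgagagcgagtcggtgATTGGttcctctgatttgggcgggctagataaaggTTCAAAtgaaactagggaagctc

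In these windows CCAAT was found 6 times for Top2a, 3 for Mki67, 1 for Mcm2 and 0 for Ccnd3, and the CHR letters 4, 2, 1 and 0 times. The second entry of Ccnd3 held 1 CCAAT, Pcna 1, Ccnb1 2 and Cdk1 3, with 2 CHR matches and 1 E2F match for Cdk1. The E-box was in none of the 8 windows. Of all 32851 windows of this length, 33.8% held CCAAT, 17.1% a CHR match, 6.02% the E-box and 0.654% an E2F match. A match describes letters and is not evidence of binding, and no match says only that the letters are not in this window.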

How the data were processed

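The authors deposited counts per gene, without normalization, and the authors deposited FPKM values, which divide counts by gene length and a library total. The submitters' notes name HISAT2 2.0.5, featureCounts 1.5.0-p3 and mm10. The test on counts was that of edgeR 4.0.16, under R 4.3.3 (TMM, filterByExpr, quasi-likelihood test, 1 mean for each of 4 groups), which left 15458 genes and a biological coefficient of variation of 17.0%. P-values were adjusted by Benjamini-Hochberg within each of 7 comparisons. The steps were tested on simulated data. Alternatives were DESeq2 1.42.0, limma 3.58.1 on log2(FPKM + 1) and log2(FPKM + 0.1), RLE factors, no filter, fits of 2 groups alone, a replicate block, exchanged group names, and each library left out.

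Across genes, deviations from the group mean, taken between CT libraries that carry 1 replicate number, correlated at 0.385, 0.123 and 0.203. Libraries of unlike numbers were not compared, so these values do not establish that the numbers are pairs. A block of replicate numbers was used as an alternative fit. The test of genotype averaged over diets took the CT libraries as independent. The part of any pairing in its calls was not tested.

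Members and lists were chosen with earlier results of these data known. Named beside the members are mouse Myc, the 4 list genes highest in FPKM, genes of the 5 pathway lists called in any comparison, and for each tested member the 3 genes of at least 1 CPM most correlated with it. Single marker genes were chosen after their values were seen.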

Additional observations from a re-analysis of the deposited data

How the results depend on the processing

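Counts in this paragraph are of the cyclins and proliferation genes alone, and those over all genes follow further on. For OE-WD against CT-WD, the number of them called was 0, and 1 with no filter on low counts or with DESeq2. Averaged over diets, the number called between genotypes was 2, and 1 with limma on log2(FPKM + 1), 0 with the replicate block and 0 with the names of CT-WD and OE-CTD exchanged. That exchange also gave 2 for diet averaged over genotypes. Leaving out each library gave 0 to 3 called for OE-WD against CT-WD and 1 to 2 for genotype averaged over diets. Exchanging the names reversed Ccnd1, to 0.63 for CT-WD against CT-CTD, -0.45 for OE-CTD against CT-CTD, -0.14 for genotype and 0.94 for diet, and by its construction this exchange swaps the genotype and diet contrasts. The cause of the other shifts was not tested.

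Of 1206 log2 fold changes of these genes under alternatives, 87 changed sign, 63 of them on leaving out a library and 20 on exchanging names. In 4 of the 87, either value was called or had an unadjusted p under 0.05. A further 13 lost a call and 8 gained one. No alternative moved the median of all genes by more than 0.0276.

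Over all genes and with all libraries kept, the number called for OE-WD against CT-WD was 87, and ran from 1 with the block or exchanged names to 401 with no filter. For OE-CTD against CT-CTD it was 295, and ran from 0 with exchanged names to 570 with no filter. For genotype averaged over diets it was 562, and ran from 1 with exchanged names to 760 with no filter.

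Between OE-WD and OE-CTD, deviations of libraries with 1 replicate number correlated at 0.0711, 0.138, 0.142 and 0.338. This range overlaps the 0.123 to 0.385 between CT-WD and CT-CTD, and what a replicate number pairs is not given. The correlations were -0.230, -0.158 and -0.0647 between OE-WD and CT-WD. They were 0.0465, -0.113 and -0.122 between OE-CTD and CT-CTD, so the block for genotype rests on no measured pairing. Ccnb1 and Cdk1 did not pass the filter on low counts.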

Other observations

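Adipocyte genes, 6 led by Fabp4, ran from 167 CPM in OE-CTD 4 to 504 in CT-CTD 1.

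Blood cells were seen mainly through their globins. Erythroid genes, 6 led by Hba-a1, ran from 125 CPM in OE-CTD 2 to 382 in OE-WD 2. Lymphocyte genes, 8 led by Jchain, stayed under 1.19 CPM in sum and neutrophil genes, 6 led by S100a9 and with Ly6g at 0, under 1.27 CPM.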
